A study of Homo sapiens with 5 samples.

Results

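Polyamine synthesis and the hypusination of EIF5A were followed through 8 genes in MDA-MB-231, an established human cell line from a triple-negative breast tumour. The 8 are ODC1 and SRM (synthesis), OAZ1 and OAZ2 (antizymes), PAOX (oxidation), and EIF5A, DHPS and DOHH (hypusination). They were the table rows whose symbol matches this list, with the transcript of highest mean taken for each gene. All 8 were found, among 10576 genes in all. The study addressed PP2A, a tumour suppressor phosphatase, through its inhibitors SET and CIP2A, and its title names MYC, a transcription factor for which ODC1 is a classical target gene.

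There were 5 libraries from cells of the same line and medium, 1 per group. Control siRNA (siNT) and siRNA against SET (siSET) were applied for 48 hours. The siRNA against CIP2A (siCIP2A) has no time in its own treatment label, and the shared protocol gives 48 hours. PBS, the control for the drug, and OP449 at 1 µM, a compound that antagonizes SET, were applied for 12 hours. The siRNA and drug arms therefore differ in time, and no label names a batch or a separate culture. The rows used here lie on chromosomes 1 and 10 to 19 and on chromosome 2 up to position 166545916 (hg19), so every count over all genes is over this part of the genome. SET, CIP2A and MYC have no row in it and were not analysed here, so the extent of silencing was not checked.

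With 1 library per group there is no test between conditions and no replicate check. Each library held between 3639530 and 5599350 reads over these genes, fewest in siSET and most in siCIP2A, and the depth of the whole libraries is not known here. The values are reads put on a common scale by the authors, called scaled counts here. Brackets give 95% exact Clopper-Pearson intervals of the log2 ratio of 2 libraries, from the recovered reads. They cover counting error only and compare libraries, not conditions. Log2 folds were taken on log2(scaled count + 1), which understates the folds of low genes. The marker genes of this mesenchymal-like line were checked first. VIM, CD44, AXL and ZEB1 together stood between 49515 and 57699 scaled counts. In contrast, 7 markers expected to be absent or low together stood between 327 and 559, with PGR, KRT5 and KRT14 at 0 in all 5 libraries. Among these 7, EPCAM stood between 139 and 282 and GATA3 between 133 and 250, so both were detected. The leukocyte and endothelial markers PTPRC and PECAM1 together stood between 2.21 and 10.3.

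Polyamines are small, positively charged molecules that bind nucleic acids and that growing cells require. Ornithine decarboxylase, the product of ODC1, makes putrescine in the rate-limiting step, and spermidine synthase, the product of SRM, turns putrescine into spermidine. When polyamines accumulate, a ribosomal frameshift allows antizyme to be made, and antizyme binds ornithine decarboxylase and delivers it to the proteasome. Spermidine also donates the side chain from which DHPS and then DOHH build hypusine, an amino acid found in EIF5A, a factor that helps ribosomes through difficult stretches of peptide.

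Because the series sets PP2A against MYC, the promoters of the members were searched for CACGTG, the E-box that MYC binds with its partner MAX. RefSeq promoters (GRCh38.p14, 250 bases before to 50 after a start) were matched by symbol for 7 of the 8 genes, with 13 start sites. CACGTG reads the same on both strands and was found in 3 members, ODC1, SRM and DOHH. Of all 27305 genes with a promoter in the same source, 8.77% hold it at a listed start. Counted by promoter, 7.26% of 35116 windows of this length hold it, and 0.664% hold 2 or more. TATAA, the core of the TATA box, was searched on both strands as well and occurs in 20.4% of these windows. The 4 windows with a match in these 3 genes are shown to place the matches, which are in capitals. A match is a description of the letters and not a bound site. PAOX is named only.

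ODC1, upstream start (chr2:10448278-10448577, minus strand, TATAA in capitals, 32 bases before the start): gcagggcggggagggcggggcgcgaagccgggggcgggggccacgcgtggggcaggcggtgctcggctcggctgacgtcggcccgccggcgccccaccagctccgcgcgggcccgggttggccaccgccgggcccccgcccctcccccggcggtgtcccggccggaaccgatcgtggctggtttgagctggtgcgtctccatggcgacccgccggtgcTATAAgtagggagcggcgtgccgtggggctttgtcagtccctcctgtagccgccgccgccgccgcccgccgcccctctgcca

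ODC1, downstream start (chr2:10447963-10448262, minus strand, CACGTG in capitals, at 29 bases before and 5 after the start): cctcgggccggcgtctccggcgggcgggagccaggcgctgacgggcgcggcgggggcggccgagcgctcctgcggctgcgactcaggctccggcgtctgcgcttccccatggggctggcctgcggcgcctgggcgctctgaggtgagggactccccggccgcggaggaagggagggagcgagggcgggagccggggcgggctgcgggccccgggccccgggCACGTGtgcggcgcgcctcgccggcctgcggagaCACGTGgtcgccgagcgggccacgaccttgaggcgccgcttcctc

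SRM (chr1:11059969-11060268, minus strand, CACGTG in capitals, 199 bases before the start): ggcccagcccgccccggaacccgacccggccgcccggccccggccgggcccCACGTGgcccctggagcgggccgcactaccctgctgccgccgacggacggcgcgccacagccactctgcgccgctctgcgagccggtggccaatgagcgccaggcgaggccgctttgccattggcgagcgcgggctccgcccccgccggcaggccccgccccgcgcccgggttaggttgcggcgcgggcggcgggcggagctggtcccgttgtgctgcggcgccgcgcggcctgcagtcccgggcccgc

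DOHH (chr19:3500625-3500924, minus strand, CACGTG in capitals, 9 bases before the start): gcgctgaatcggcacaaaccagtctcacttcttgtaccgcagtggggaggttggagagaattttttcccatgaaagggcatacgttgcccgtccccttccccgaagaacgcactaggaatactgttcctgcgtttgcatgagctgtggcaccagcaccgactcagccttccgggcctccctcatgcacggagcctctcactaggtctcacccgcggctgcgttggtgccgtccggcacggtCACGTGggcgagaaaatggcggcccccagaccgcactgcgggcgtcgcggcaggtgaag

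The ODC1 window with a pair of matches belongs to the downstream of its 2 listed starts, and the upstream window holds no CACGTG. Windows were matched by symbol and not to the measured transcript rows. Which ODC1 start belongs to the measured transcript was therefore not checked. OAZ1 holds TATAA at 6 bases after its listed start and no CACGTG, and OAZ2, EIF5A and DHPS hold neither motif in these windows. The 3 genes with CACGTG did not share a pattern across the libraries, as the values below show. SRM stood within 1.11-fold over all 5 libraries, DOHH spanned 1.46-fold and ODC1 spanned 2.72-fold.

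ODC1 was the member that differed most between libraries. It stood at 2319 scaled counts in PBS, 3389.5 in OP449, 2726 in siNT, 2589.9 in siSET and 1248 in siCIP2A. The siCIP2A library was the lowest of the 5 and OP449 the highest. In this order only siSET and siNT were neighbours that counting error did not separate. As RNA came from whole cultures, fewer cells with the transcript and less of it per cell cannot be told apart.

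**Figure D1:**
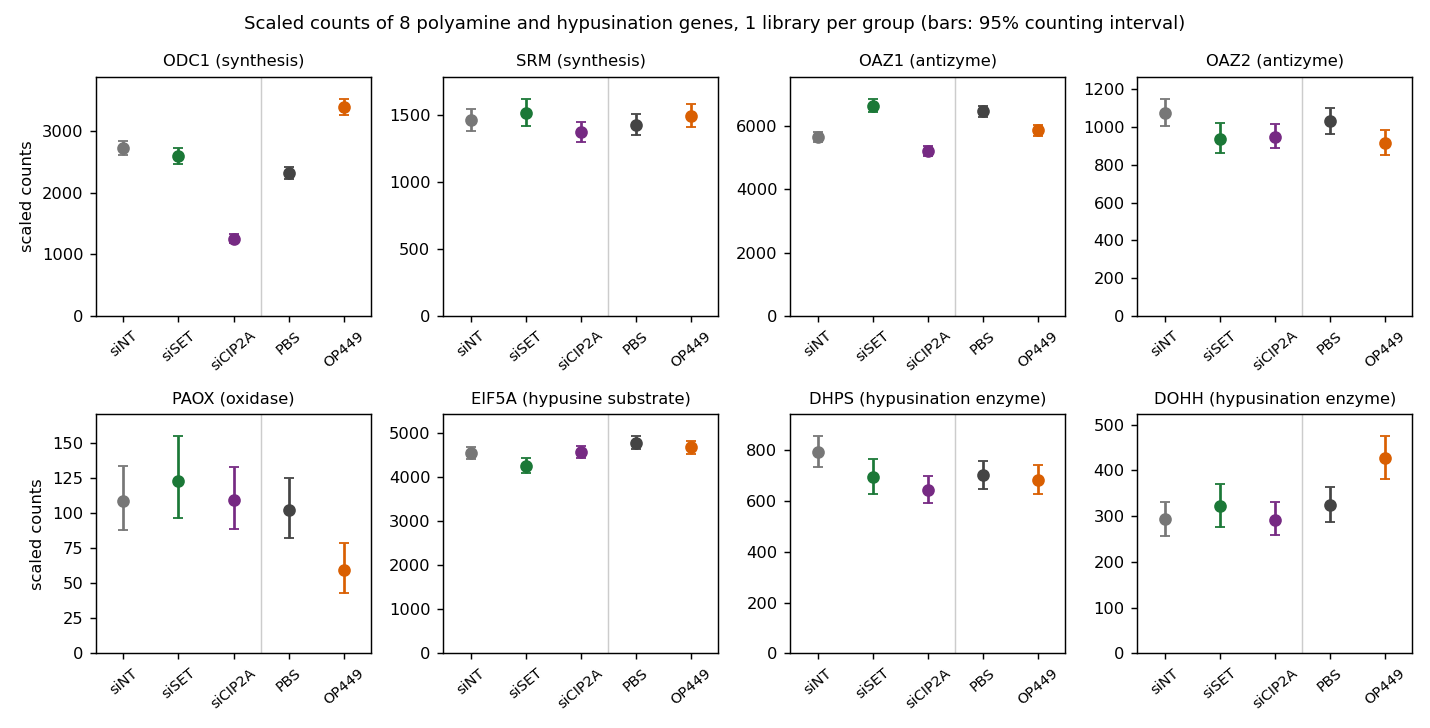
Scaled counts (y axes, from 0) of the 8 genes in the 5 libraries (x axes), with 95% exact Poisson counting intervals as bars. ODC1 is lowest in siCIP2A and highest in OP449, PAOX is lowest and DOHH highest in OP449, and SRM is nearly level.

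In siCIP2A, ODC1 was 2.18-fold below siNT, or -1.13 [-1.23 to -1.02] on the log2 scale, 1130 reads set against 2300. It was the 26th lowest of 6099 genes whose mean over the 2 libraries was at least 50 scaled counts. Of these genes 0.639% were at least 2-fold lower, and ODC1 was the 1 member among them. The siNT library itself stood above PBS for ODC1, at 0.23 [0.15 to 0.32]. Against PBS, the siCIP2A value was 1.86-fold lower, at -0.89 [-1.0 to -0.79], under 2-fold, where 0.705% of genes were at least 2-fold lower. The siCIP2A library therefore lay below both siNT and PBS, by a size that depended on which was used. PBS is the control of the drug arm, differs in time and is not a matched control for the siRNA.

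In siSET, ODC1 stood close to siNT, at -0.07 [-0.17 to 0.02], and above PBS, at 0.16 [0.06 to 0.26]. The interval against siNT includes 0, which does not show that the libraries were alike, but it holds no fold as large as that of siCIP2A. In OP449, ODC1 was 1.46-fold above PBS, at 0.55 [0.46 to 0.63] from 2631 and 2046 reads, the 153rd highest of 6093 genes. The antagonist library and the CIP2A siRNA library thus stood on opposite sides of their own controls, at different times of treatment, and the difference between these folds was not tested.

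SRM, which acts directly after ODC1, stood at 1426 scaled counts in PBS, 1493 in OP449, 1460.1 in siNT, 1517 in siSET and 1373 in siCIP2A. The lowest, siCIP2A, and the highest, siSET, differed by 0.14 [0.02 to 0.27] on the log2 scale, and no neighbours in the order were separated by counting error. The log2 fold was 0.06 [-0.07 to 0.18] for siSET, -0.09 [-0.20 to 0.03] for siCIP2A and 0.07 [-0.05 to 0.18] for OP449 against PBS. The ODC1 difference in siCIP2A was therefore not accompanied by one of similar size in the next enzyme.

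OAZ1, the main antizyme, stood at 6468 scaled counts in PBS, 5871 in OP449, 5645 in siNT, 6651 in siSET and 5209.6 in siCIP2A. It was the most abundant member per length, at a mean of 5199 scaled counts per kb of transcript. Its values were higher in siSET than in siNT, at 0.24 [0.18 to 0.30], but siNT was itself below PBS, at -0.20 [-0.25 to -0.14]. Against PBS, siSET stood at 0.04 [-0.02 to 0.10]. In siCIP2A, OAZ1 was below siNT at -0.12 [-0.17 to -0.06] and below PBS at -0.31 [-0.37 to -0.26], and in OP449 it was below PBS at -0.14 [-0.20 to -0.08].

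OAZ2, a less abundant antizyme that also targets ornithine decarboxylase, stood at 1032 in PBS, 917 in OP449, 1077 in siNT, 937 in siSET and 949.6 in siCIP2A. The 3 treated libraries were each below their control. The log2 folds were -0.20 [-0.36 to -0.05] in siSET, -0.18 [-0.32 to -0.05] in siCIP2A and -0.17 [-0.31 to -0.03] in OP449. These are differences of at most 1.15-fold, the OP449 interval included 0 when the libraries were rescaled to equal totals, and siSET and siCIP2A share the same control library. Against PBS the interval included 0 for siSET, at -0.14 [-0.29 to 0.02], and for siCIP2A, at -0.12 [-0.26 to 0.02].

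The ratio of ODC1 reads to antizyme gene reads was also taken within each library, where the scaling cancels. It is a ratio of RNA, and the proteins were not measured here. These ratios were chosen after the values had been seen, and since they are not corrected for length only their differences between libraries can be read. There were 23.95 ODC1 reads per 100 OAZ1 reads in siCIP2A, 35.9 in PBS, 38.9 in siSET, 48.3 in siNT and 57.7 in OP449. The counting intervals were 22.4 to 25.6 in siCIP2A, 34.1 to 37.7 in PBS, 36.7 to 41.3 in siSET, 45.9 to 50.8 in siNT and 55.0 to 60.6 in OP449. Only those of PBS and siSET overlapped. The siSET library was lower than siNT by this measure although ODC1 alone differed little, and OAZ1 was higher there. Against OAZ2 the order of these libraries was the other way, with 276 ODC1 reads per 100 OAZ2 reads [250.4 to 305] in siSET and 253 [234 to 274] in siNT, and the intervals overlapped. The siCIP2A library was again the lowest, at 131 [120.1 to 144], and OP449 the highest, at 369.5 [340.03 to 402], with PBS at 225 [208 to 243].

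**Figure D2:**
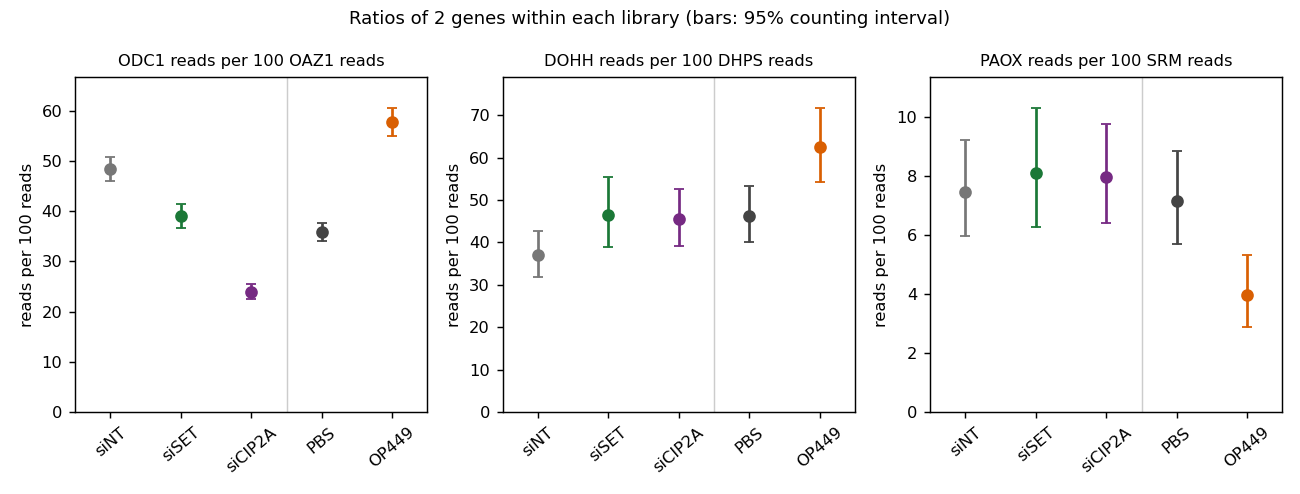
Reads of a gene per 100 reads of another in the same library (y axes, from 0) for ODC1 over OAZ1, DOHH over DHPS and PAOX over SRM, with 95% exact counting intervals as bars. ODC1 per 100 OAZ1 reads runs from 23.95 in siCIP2A to 57.7 in OP449, and the OP449 library is highest for DOHH over DHPS and lowest for PAOX over SRM.

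PAOX, which oxidizes acetylated polyamines and so returns them towards putrescine, was the least abundant member, at a mean of 54.1 scaled counts per kb. It stood at 102 scaled counts in PBS, 59.3 in OP449, 109 in siNT, 123 in siSET and 109 in siCIP2A, from 90, 46, 92, 72 and 99 reads. The OP449 library was the lowest, and the other 4 could not be separated by counting error. Against PBS, PAOX was 1.71-fold lower in OP449, at -0.77 [-1.33 to -0.26], the 48th lowest of 6093 genes. The interval is wide because the reads are few. The rank is not matched for depth, and counting error alone spreads the folds of genes with few reads more widely. All 3 PAOX transcript rows, which share reads, stood lower, between -0.78 and -0.74. Per 100 SRM reads there were 3.97 PAOX reads [2.89 to 5.33] in OP449 and 7.15 [5.71 to 8.87] in PBS. The siRNA libraries stood at 0.17 [-0.29 to 0.64] for siSET and 0.00 [-0.42 to 0.43] for siCIP2A against siNT.

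EIF5A, the protein that receives hypusine, stood at 4787 scaled counts in PBS, 4678 in OP449, 4552 in siNT, 4265 in siSET and 4566 in siCIP2A. Its highest and lowest libraries, PBS and siSET, differed by 0.17 [0.09 to 0.24] on the log2 scale. The siSET library was below siNT at -0.09 [-0.17 to -0.02] and below PBS at -0.17 [-0.24 to -0.09]. Neither siCIP2A against siNT, at 0.00 [-0.06 to 0.07], nor OP449 against PBS, at -0.03 [-0.10 to 0.03], was separated from equality. EIF5AL1, a near-identical copy of EIF5A elsewhere in the genome, held between 11.4 and 12.7 reads per 100 EIF5A reads in every library. The sources used here do not say how reads that match both were divided, so the levels of both are uncertain.

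DHPS, the enzyme of the first step of hypusination, stood at 701 in PBS, 683 in OP449, 793 in siNT, 693 in siSET and 644 in siCIP2A. The siNT library was the highest and the only one separated from its neighbour. Against siNT the log2 fold was -0.19 [-0.38 to -0.01] in siSET and -0.30 [-0.46 to -0.14] in siCIP2A. Against PBS it was -0.02 [-0.20 to 0.17] in siSET and -0.12 [-0.29 to 0.04] in siCIP2A, and both intervals included 0. PBS is the control of the drug arm and differs from the siRNA libraries in time and treatment. It therefore cannot tell a high siNT value from low values in siSET and siCIP2A. OP449 stood at -0.04 [-0.21 to 0.13] against PBS. DHPS overlaps WDR83 on the opposite strand, and the counting is not stated to use strand, so reads of the overlap cannot be assigned.

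DOHH, which completes hypusine by hydroxylation, stood at 324 in PBS, 426 in OP449, 293 in siNT, 322 in siSET and 293 in siCIP2A. OP449 was the highest library, and the other 4 could not be separated by counting error from their neighbours. Against PBS, DOHH was 1.31-fold higher in OP449, at 0.39 [0.16 to 0.63] from 331 and 286 reads, and the second transcript row of the gene also stood at 0.39. Within libraries there were 62.5 DOHH reads per 100 DHPS reads in OP449, against 46.3 in PBS, 46.4 in siSET, 45.5 in siCIP2A and 36.9 in siNT. The interval of OP449, 54.3 to 71.8, lay above those of siNT, PBS and siCIP2A and overlapped that of siSET, which reached 55.3. Against siNT, DOHH stood at 0.14 [-0.15 to 0.42] in siSET and 0.00 [-0.26 to 0.26] in siCIP2A.

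**Figure D3:**
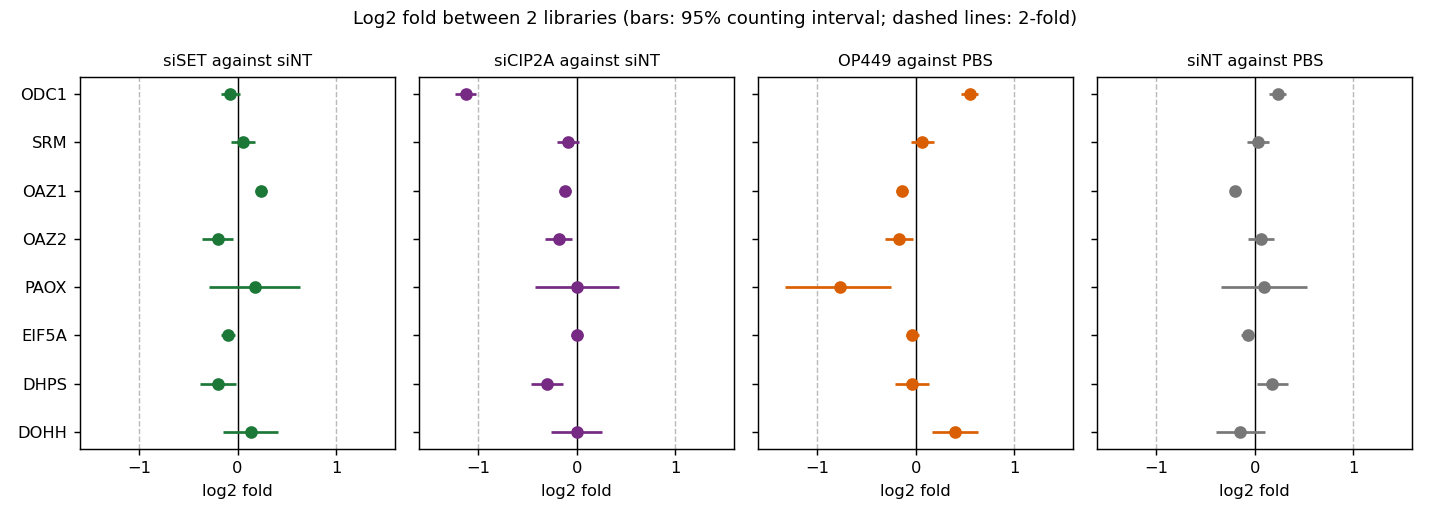
Log2 folds (x axes) of the 8 genes (y axis) for 3 treated libraries against their controls and for the controls against each other, with 95% counting intervals as bars and dashed lines at 2-fold. ODC1 in siCIP2A is the 1 point beyond 2-fold, and the OP449 panel shows ODC1 and DOHH to the right of 0 and PAOX to the left.

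As a list, the 8 genes did not move together, and all 8 passed the floor of 50 scaled counts in every comparison. In siSET, 4 stood above siNT and 4 below, with a median of -0.01, against 0.01 over 6081 genes. No member was at least 2-fold higher, where 0.395% of genes were, or 2-fold lower, where 0.789% were. The interval lay above 0 for 1 member, OAZ1, where that held for 19.8% of genes, and below 0 for 3, OAZ2, EIF5A and DHPS, where it again held for 19.8%. Whether an interval leaves 0 depends on the number of reads. Here and below, the shares of genes are not matched to the listed genes for depth, so no excess can be read from them.

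In siCIP2A, 2 members, PAOX and EIF5A, both at 0.00, stood above siNT and 6 below, with a median of -0.10 against 0.02 over 6099 genes. The interval lay below 0 for ODC1, OAZ1, OAZ2 and DHPS, 4 of 8, against 20.2% of genes, and above 0 for none, against 21.3%. No member was at least 2-fold higher, against 0.475% of genes. Against PBS the interval lay below 0 for ODC1, OAZ1 and EIF5A, 3 of 8, against 20.4% of genes.

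In OP449, 3 members stood above PBS and 5 below, with a median of -0.04 against 0.02 over 6093 genes. None was at least 2-fold higher, against 0.295% of genes, or lower, also against 0.295%. PAOX was the 1 member at least 1.5-fold lower, against 1.77% of genes. The interval lay above 0 for ODC1 and DOHH, against 19.3% of genes, and below 0 for OAZ1, OAZ2 and PAOX, against 16.9%. With a difference of at least 25% upwards or 20% downwards demanded as well, 2 members were higher, against 8.11% of genes, and 1, PAOX, was lower, against 6.76%. In the siNT control against the PBS control, none of the 8 was at least 2-fold higher, against 0.247% of genes, or lower, against 0.148%. There the interval lay above 0 for ODC1 and DHPS, against 17.7% of genes, and below 0 for OAZ1 and EIF5A, also against 17.7%.

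The members are spread over 6 chromosomes. On hg19, counted from 1, the transcript of ODC1 spans chromosome 2 from 10580508 to 10588453, that of SRM chromosome 1 from 11114649 to 11120091 and that of OAZ2 chromosome 15 from 64979773 to 64995462. PAOX spans chromosome 10 from 135192741 to 135205197 and EIF5A chromosome 17 from 7210856 to 7215780. Chromosome 19 holds OAZ1, from 2269520 to 2273486, DOHH, from 3490820 to 3500938, and DHPS, from 12786534 to 12792677. The 3 genes on chromosome 19 differed in their library order, with siSET highest for OAZ1, OP449 highest for DOHH and siNT highest for DHPS. Per kb of transcript the mean level over the libraries ran from OAZ1 through EIF5A at 3024, SRM at 1148, ODC1 at 925, DHPS at 515, OAZ2 at 508 and DOHH at 163 to PAOX.

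Of 35 other genes of polyamine metabolism, 18 had a row on the chromosomes used here. The others were not analysed here, so their absence says nothing of their level in the cells. At most 16 passed the floor in a comparison, and none was at least 2-fold in any of the 4 comparisons. In siSET the interval lay above 0 for 1 of 16 and below 0 for 6, where 19.8% of all genes lay above and 19.8% below. The median was -0.07, and that of all genes 0.01. In siCIP2A the interval lay above 0 for 1 of 15 and below 0 for 7, against 21.3% and 20.2% of all genes. The median was -0.17, and that of all genes 0.02. In OP449 it lay above 0 for 3 of 16 and below 0 for 3, against 19.3% and 16.9% of all genes. The median was 0.13, and that of all genes 0.02. In siNT against PBS the interval lay above 0 for 3 of 16 and below 0 for 2, against 17.7% in each direction. The median there was -0.04, and that of all genes -0.004.

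**Figure D4:**
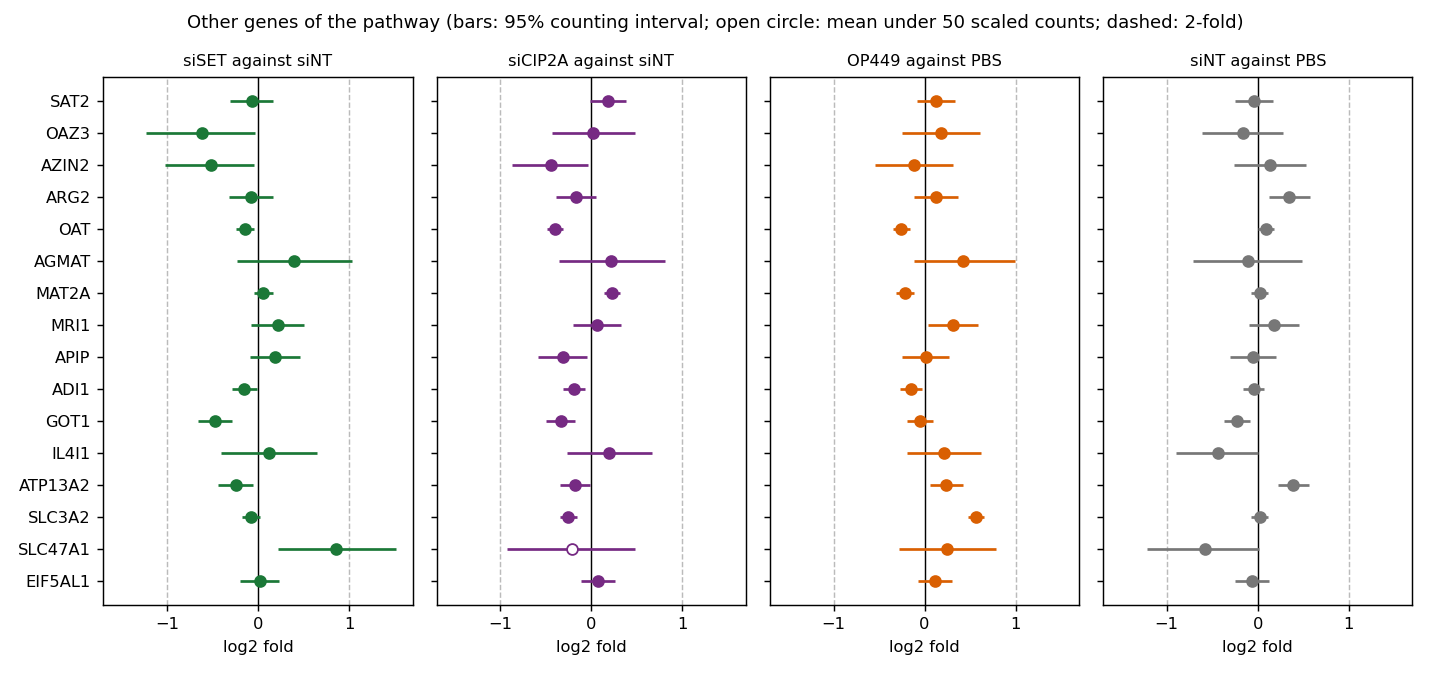
Log2 folds (x axes) of the other measured pathway genes (y axis) in the 4 comparisons, with 95% counting intervals as bars, dashed lines at 2-fold and an open circle where the mean was under 50 scaled counts. All points lie within 2-fold, and SLC3A2 stands out among the OP449 values.

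Of the interconversion and antizyme list, 3 genes were measured. SAT2, a relative of the spermidine acetyltransferase SAT1, stood within -0.07 and 0.18 in the 4 comparisons, each with an interval that included 0. OAZ3, the antizyme known from testis, stood at 61.6 scaled counts in siSET and 94.8 in siNT, at -0.61 [-1.23 to -0.04], and in no other comparison did its interval leave 0. AZIN2, an antizyme inhibitor listed under its older name ADC, was lower than siNT in siSET, at -0.52 [-1.02 to -0.04], and in siCIP2A, at -0.45 [-0.87 to -0.03]. The siNT library held 133 scaled counts of AZIN2, siSET 92.4, siCIP2A 97.2, PBS 121 and OP449 112.

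SLC47A1, an exporter of organic cations, was with OAZ3 the other gene of the lists past 1.5-fold in siSET, at 0.85 [0.22 to 1.52]. Over all genes 2.84% were at least 1.5-fold higher there and 4.31% lower. It held 82.1 scaled counts there and 45.03 in siNT, with 68.0 in PBS. In siNT against PBS it stood at -0.58 [-1.22 to 0.02]. SLC3A2 was named after its values were seen. It encodes the heavy chain of amino acid exchangers and has also been linked to polyamine export. SLC3A2 stood at 3325 in OP449 and 2249 in PBS, at 0.56 [0.48 to 0.65], next to the ODC1 value of 0.55, and at 2281 in siNT, 2162 in siSET and 1917 in siCIP2A. In siCIP2A it was below siNT at -0.25 [-0.35 to -0.16], a smaller fold than that of ODC1.

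OAT, chosen likewise after its values were seen, encodes the mitochondrial enzyme that uses or supplies ornithine, the substrate of ODC1. It stood at 2479 in PBS, 2079 in OP449, 2637 in siNT, 2385 in siSET and 1999 in siCIP2A. Each treated library was below its control, at -0.15 [-0.24 to -0.05] in siSET, -0.40 [-0.49 to -0.31] in siCIP2A and -0.25 [-0.35 to -0.16] in OP449. In OP449, OAT and ODC1 therefore stood on opposite sides of PBS. MAT2A, which makes the methyl donor from which the aminopropyl groups of spermidine derive, was above siNT in siCIP2A, at 0.23 [0.14 to 0.32], and below PBS in OP449, at -0.22 [-0.31 to -0.12]. It too was named after its values were seen.

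The genes whose profile over the 5 libraries was closest to that of ODC1 were sought among 4708 others with a mean of at least 200 scaled counts. Likeness was the root mean square difference between log2 profiles, each centred on its own mean. The 5 closest were SLC19A2, a thiamine transporter, at 0.13, CERS5, a ceramide synthase, at 0.16, ARL6IP6, also at 0.16, NRBF2, a subunit of an autophagy lipid kinase complex, at 0.17, and MAPK6, the atypical kinase ERK3, at 0.17. In each of them siCIP2A was the lowest library. Their log2 folds in siCIP2A against siNT ran from -1.42 for NRBF2 to -0.96 for CERS5. As the genes were chosen for likeness to ODC1 over these same libraries, their low siCIP2A values follow from the choice. They are not a separate result. In OP449 against PBS the folds of these genes stood between 0.10 for CERS5 and 0.28 for MAPK6, lower than the 0.55 of ODC1. The interval lay above 0 for SLC19A2 [0.03 to 0.47] and MAPK6 [0.12 to 0.44]. It included 0 for CERS5 [-0.16 to 0.36], ARL6IP6 [-0.06 to 0.29] and NRBF2 [-0.14 to 0.40]. In siSET, NRBF2, at -0.32 [-0.63 to -0.01], and MAPK6, at -0.36 [-0.54 to -0.19], were below siNT. The siSET intervals of ODC1, SLC19A2, CERS5 and ARL6IP6 included 0. None of the 5 is a gene of polyamine metabolism on the lists used here.

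**Figure D5:**
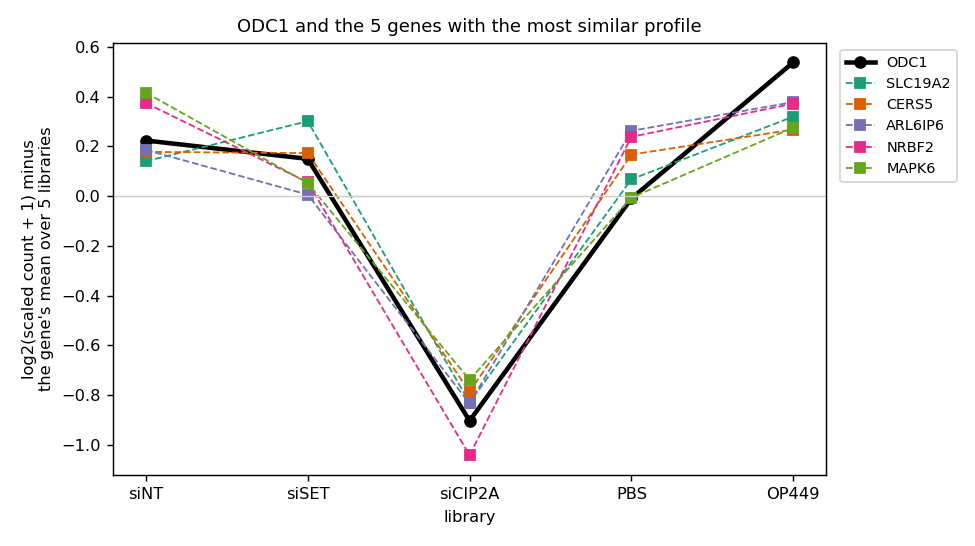
Log2(scaled count + 1) minus the mean of each gene over the 5 libraries (y axis), by library (x axis), for ODC1 (solid black line) and the 5 genes with the smallest root mean square difference from it (dashed lines). All 6 lines dip in siCIP2A, which follows from the choice of genes by likeness, and ODC1 is the highest of them in OP449.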

How the data were processed

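Total RNA was primed with oligo dT and read on an Illumina GAII, per the labels' protocols. The submitters' processing notes name hg19, CASAVA and Bowtie 1.0.0. The sources used here give no counter, strand setting or scaling method. The deposited table holds a signal per RefSeq transcript, which the authors had scaled by 1 factor per library. Division by the smallest value of a library gave whole numbers for 100% of values, within 0.001 reads, so whole reads were recovered. An exact binomial test of these reads (Benjamini-Hochberg, 0.05), added after seeing the data, called 1802 genes in siSET, 2021 in siCIP2A, 1616 in OP449 and 1580 between the controls. It covers counting error between single libraries only, so its calls are not effects of a treatment.

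Of 16383 rows, 15739 matched a current symbol by accession. The row of highest mean stood for each gene, and genes were counted where the mean over the 2 libraries compared reached 50 scaled counts. Folds used a pseudocount of 1, and lengths came from GENCODE. Groups came from the labels. Folds and intervals were checked on simulated Poisson counts, which hold counting error but no further spread between libraries. That check therefore says nothing of such spread in these data. Named genes were the 8 members, every measured gene of the interconversion list, other pathway genes past 1.5-fold and the 5 genes most like ODC1. SLC3A2, OAT and MAT2A were named after their values were seen, and EIF5AL1 and WDR83 for the reads they may share with a member. The members and lists were chosen with earlier results of these data known. Alternatives were the pseudocount, floor, fold threshold, scaling, transcript row, PBS as control, and the mean in place of the median over the members. Python 3.11.15, numpy 2.4.6, pandas 2.3.3, scipy 1.17.1 and matplotlib 3.10.9 were used.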

Additional observations from a re-analysis of the deposited data

How the results depend on the processing

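No paired analysis was possible because each group has 1 library. Alternatives moved 6 of 300 single-gene values out of their counting interval, all 6 with PBS in place of siNT as control. Many of the 300 could not move, since a floor leaves a gene's fold unchanged, and so does averaging over a gene's only row. Just 1 value was past 2-fold, ODC1 in siCIP2A against siNT, and it kept its sign. Some smaller folds changed sign, such as DOHH in siSET, at 0.14 against siNT and -0.01 against PBS. ODC1 in siCIP2A ran from -1.15 to -0.89 over its alternatives, and with PBS as control no member was at least 2-fold lower (0, against 1 with siNT). In OP449 against PBS, ODC1 ran from 0.52 to 0.57, DOHH from 0.37 to 0.42 and PAOX from -0.80 to -0.69. There a threshold of 1.5-fold gave 1 member lower, and a difference of 25% upwards or 20% downwards with an interval away from 0 gave 2 higher and 1 lower, against 0 and 0 at 2-fold. The exact binomial test of reads, added after seeing the data, called 1 member higher and 2 lower in siSET, 0 higher and 4 lower in siCIP2A, 2 higher and 2 lower in OP449, and 1 higher and 1 lower in siNT against PBS, where it called 29.6%, 33.1%, 26.5% and 26% of all genes in turn. That test takes reads as its units, so it covers counting error between 2 libraries and cannot speak of a treatment. Fold rules and read tests ask different things, so these counts differ by construction. With PBS as control ODC1 in siSET stood at 0.16, on the other side of 0 from its value against siNT. Rescaling shifted folds by at most 0.03 on the log2 scale. PAOX, with 46 to 99 reads, is the member that depth limits most.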
